A study of Homo sapiens with 4 samples.

Results

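The genes described here encode the apoptosome, initiator caspases and the proteins that hold caspases in check or release them: APAF1, CYCS, CASP9, CASP8, DIABLO, HTRA2, XIAP and BIRC2. They were taken by name from a table of gene counts, in which each of the 8 names stood on 1 row among 57014 named rows, and all 8 passed the filter on low counts that left 18043 genes to be tested. The cells are 22Rv1, a human prostate cancer line grown in RPMI-1640 medium with 10% fetal bovine serum. A CD276 knockout group (2 libraries, sgCD276 in the library names) was set against a control group (2 libraries, wild-type genotype, sgGFP in the library names), with replicate numbers 1 and 3 in both. CD276 encodes B7-H3, a cell-surface member of the B7 group of immune checkpoint proteins, and the series concerns DNA methylation and B7-H3 as targets in prostate cancers that lack RB1 or are neuroendocrine. The labels do not say whether the knockout was a clone or a pool, nor that replicates 1 and 3 were grown separately, so the tests see only the spread among these 4 libraries.

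In the mitochondrial route to cell death, cytochrome c leaves the space between the mitochondrial membranes and binds APAF1, which assembles into a wheel-shaped complex, the apoptosome, that recruits and activates the initiator caspase CASP9. CASP9 then cleaves effector caspases, which take the cell apart; CASP8 starts a separate route from death receptors at the cell surface. XIAP binds and inhibits caspases, and DIABLO (also called SMAC) and HTRA2, which leave the mitochondria together with cytochrome c, bind inhibitors of this family and relieve the block. Caspases are made as inactive precursors, so transcript counts do not report their activity.

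The named counts summed to 24437926 and 25802417 in the knockout libraries and to 23206271 and 20079050 in the controls. Levels below are normalized CPM, counts scaled to library size (CPM) after correction by trimmed mean of M-values (TMM), and each difference is the log2 fold change (knockout over control) with its SE. A gene is said to have risen or fallen where its p from the edgeR quasi-likelihood test, adjusted over all genes tested by Benjamini and Hochberg's method, was under 0.05. CD276 itself had 621 and 679 counts in the knockouts and 1058 and 1054 in the controls, or -1.03 ± 0.16 on the log2 scale (edgeR adjusted p = 0.00561, or 0.0812 without control replicate 3). All 10 markers of a prostate epithelial line, among them KLK3 and HOXB13, were detected, summing to 3182 and 3947 normalized CPM in the knockouts and 3990 and 3907 in the controls; KRT18 was the 1 that fell, and 0 rose. The 5 leukocyte markers, of which CD3E had 0 counts throughout, summed to 0.228 and 0.387 normalized CPM in the knockouts and 0.717 and 0.465 in the controls. The 4 endothelial markers, of which PECAM1 and CDH5 had 0 counts throughout, summed to 0 and 0.116 in the knockouts and 0 in both controls. The 7 fibroblast markers summed to 34.5 and 47.9 in the knockouts and to 60.6 and 54.4 in the controls; COL1A1 fell and LUM rose, and their part in the results was not tested. Over all genes tested, the median absolute log2 difference between libraries of a group was 0.30 for the knockouts and 0.14 for the controls. Counts of mitochondrial genome transcripts made up 1.46% and 1.78% of the knockout libraries and 5.84% and 6.15% of the control libraries. Over all genes tested, 1780 rose (9.87%) and 2331 fell (12.9%); scaled by library totals alone, where the median over all genes was 0.10 on the log2 scale, 2340 rose and 1781 fell. In bulk RNA, fewer cells of a type and less RNA per cell cannot be told apart.

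Of the 8 genes, 3 rose and 0 fell, where 9.87% of all genes tested rose and 12.9% fell (22.8% in either direction). The 3 were APAF1, CYCS and DIABLO, the scaffold of the apoptosome, the protein that triggers its assembly and a protein released beside it. CASP9, CASP8, HTRA2, XIAP and BIRC2 did not pass the test. The count that fell was also 0 at an edgeR p under 0.05 before adjustment, by DESeq2 and by limma voom. The same 3 genes rose with both of those tools. At an edgeR p under 0.05 before adjustment, 3230 of all 18043 genes tested were higher and 3767 lower. The median log2 fold change over the 8 genes was 0.07, beside -0.0045 over all genes tested.

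APAF1 and CYCS each have a single start site in RefSeq, and the stretches before it that also lie ahead of the GENCODE 29 gene start are shown because these partners in the apoptosome both rose. Capitals mark CCAAT boxes (CCAAT, or ATTGG on the opposite strand) and the core of the NRF1 motif (GCATGCGC), the motif of a factor known for driving nuclear genes of mitochondrial proteins. Both stretches are from RefSeq's GRCh38.p14, 5′ to 3′ on the gene's strand, at chr12:98645040-98645140 on the plus strand for APAF1 and chr7:25125362-25125510 on the minus strand for CYCS.
APAF1: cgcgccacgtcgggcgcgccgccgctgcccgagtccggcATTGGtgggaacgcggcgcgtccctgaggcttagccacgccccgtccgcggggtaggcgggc
CYCS: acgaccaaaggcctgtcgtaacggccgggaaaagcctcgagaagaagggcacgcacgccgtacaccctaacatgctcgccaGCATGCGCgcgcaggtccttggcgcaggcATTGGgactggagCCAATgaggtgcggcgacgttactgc

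These and 4 other motifs, chosen after these sequences were seen, were searched for on both strands in the 250 bases before each RefSeq start of the 8 genes and in all 35116 such windows in the table. The NRF1 core was in the CYCS window only among the 8 genes and in 2.63% of all windows. CCAAT was in the windows of APAF1 (1 match) and CYCS (2 matches), in 2 of the 4 windows of DIABLO, in 1 of 2 of CASP9 and 1 of 3 of CASP8, in none of HTRA2, XIAP or BIRC2, and in 32% of all windows. The GC box (GGGCGG) had 8 matches in each of the 2 CASP9 windows, some of them overlapping each other. It was also in windows of each of the other genes except CYCS, and in 42.6% of all windows. The short form of the cAMP response element (TGACG) was in windows of CYCS, CASP9, DIABLO, XIAP and BIRC2 and in 21.2% of all windows. It was not in those of APAF1, CASP8 or HTRA2. The E2F letters TTTGGCGC and TTTCGCGC were in no window of the 8 genes and in 0.55% and 0.439% of all windows. GC content was 73.6% in the APAF1 window and 64.4% in the CYCS window, with a median of 58% over all windows. In windows of the other genes it ran from 42.8% for CASP8 to 77.6% for CASP9, so genes that did not pass lay on both sides of the median. These matches describe the letters and say nothing of binding.

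**Figure D1:**
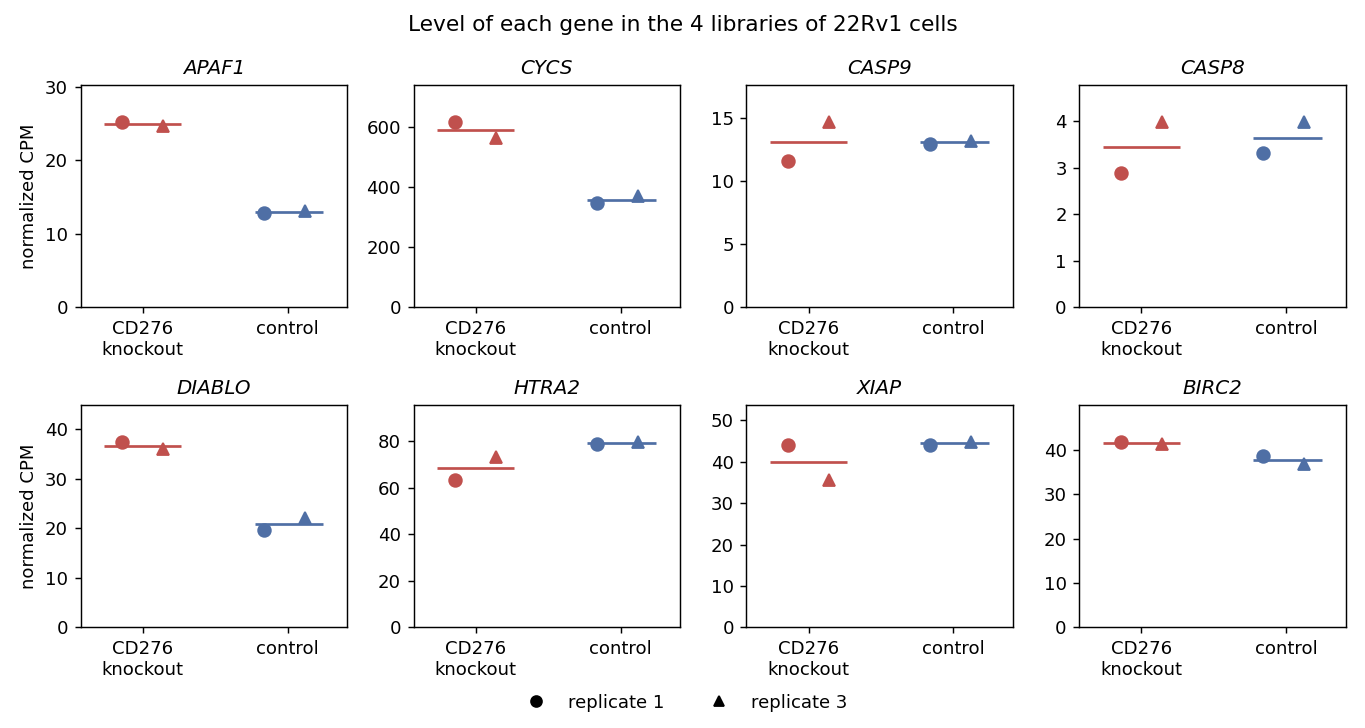
Normalized CPM (vertical axes, each from 0) of the 8 genes in the CD276 knockout (left, red) and control (right, blue) libraries; circles are replicate 1, triangles replicate 3, and lines are group means of 2 libraries. APAF1, CYCS and DIABLO lie well above both controls in both knockouts, while CASP9 and CASP8 overlap between the groups.

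APAF1, the scaffold of the apoptosome (chromosome 12, 98645141 to 98735433, plus strand, GENCODE 29 on GRCh38), had 662 and 639 counts in the knockouts and 285 and 255 in the controls. Its level was 25.2 and 24.7 normalized CPM in knockout replicates 1 and 3, against 12.8 and 13.2 in control replicates 1 and 3. The replicates lay close together in both groups, and the groups did not overlap. The difference was 1.92-fold (95% interval 1.49 to 2.49), or 0.94 ± 0.16 on the log2 scale (edgeR adjusted p = 0.00769). APAF1 shares 9.48% of its exonic bases with ANKS1B on the opposite strand, which had 56 and 51 counts in the knockouts and 30 and 32 in the controls; its part in the APAF1 value was not tested.

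CYCS, which encodes cytochrome c, an electron carrier of the respiratory chain that activates APAF1 once it is in the cytosol (chromosome 7, 25120091 to 25125361, minus strand), had 16152 and 14570 counts in the knockouts and 7695 and 7145 in the controls. This corresponds to 615 and 563 normalized CPM in the knockouts, against 345 and 369 in the controls. Both knockouts exceeded both controls, by 1.65-fold on average (95% interval 1.29 to 2.12; log2 fold change 0.72 ± 0.16, edgeR adjusted p = 0.0154). CYCS has many processed pseudogenes. The 40 rows named for such copies held 38 and 19 counts in the knockouts and 35 and 39 in the controls, or 0.235% and 0.13% of the CYCS counts in the knockouts and 0.455% and 0.546% in the controls. With the copies added to CYCS, the log2 fold change was 0.72 ± 0.16 (edgeR adjusted p = 0.0157). How reads that match several copies were counted is not known here.

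DIABLO, the mitochondrial antagonist of the inhibitors of apoptosis, had 983 and 931 counts in the knockouts and 441 and 428 in the controls. Its level was 37.4 and 35.99 normalized CPM in the knockouts, against 19.7 and 22.1 in the controls. The groups did not overlap, and the difference was 1.76-fold (95% interval 1.37 to 2.25; log2 fold change 0.81 ± 0.16, edgeR adjusted p = 0.0107). GENCODE 29 lists overlapping DIABLO genes under the same name on chromosome 12 (minus strand, 122207663 to 122226568 and 122207662 to 122227534), while the table has 1 row, so reads in shared exons may have been assigned in ways that its count does not show. The first of these shares 29.6% of its exonic sequence with the second DIABLO gene and AC048338.1 on the same strand, and 14.3% with B3GNT4 on the opposite strand. For the second DIABLO gene the shares are 85.3% on the same strand and 39% on the opposite strand. AC048338.1 had 0 counts in all 4 libraries, and B3GNT4 had 62 and 94 counts in the knockouts and 110 and 65 in the controls.

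These 3 increases kept their direction in all 16 alternatives tried. The log2 fold change ran from 0.81 to 1.05 for APAF1, from 0.63 to 0.85 for CYCS and from 0.73 to 0.92 for DIABLO. None passed the test once a control library was left out: without control replicate 1 the edgeR adjusted p was 0.161 for APAF1, 0.335 for CYCS and 0.236 for DIABLO, and without control replicate 3 it was 0.107, 0.216 and 0.113 in that order. When nuclear protein-coding genes alone were fitted, which leaves out the mitochondrial transcripts whose share differed between the groups, the log2 fold changes were 0.91, 0.69 and 0.78, and all 3 passed.

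**Figure D2:**
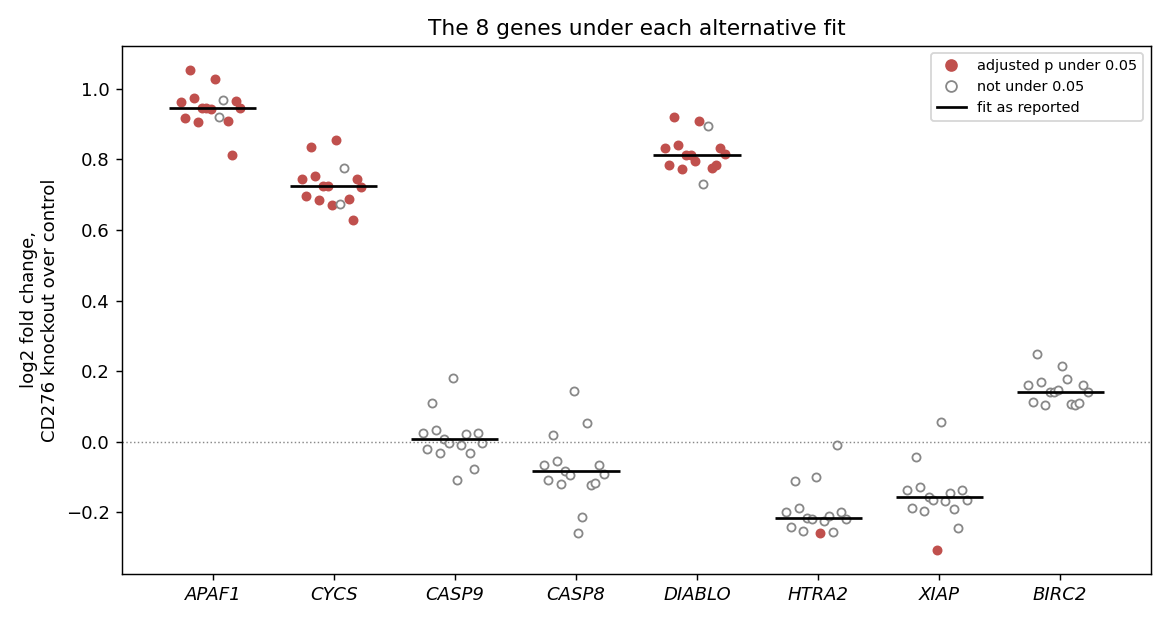
Log2 fold change of knockout over control (vertical axis) for each of the 8 genes as reported (black line) and in 15 alternative fits (points, filled where the adjusted p was under 0.05). APAF1, CYCS and DIABLO stay between 0.63 and 1.05, and the other 5 genes stay between -0.31 and 0.25.

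CASP9, the initiator caspase that the apoptosome recruits (chromosome 1, 15490832 to 15526534, minus strand), did not pass the test. It was at 11.5 and 14.7 normalized CPM in the knockouts, against 12.9 and 13.2 in the controls, so that the knockouts lay on either side of the controls. Its log2 fold change was 0.0070 ± 0.20 (edgeR adjusted p = 0.983), with a 95% interval of the fold change from 0.738 to 1.37. CASP9 shares 2.01% of its exonic bases with CELA2B on the opposite strand, which had at most 6 counts in a library. The ratio of APAF1 counts to CASP9 counts within a library, which no scaling affects, was 2.18 and 1.69 in the knockouts and 0.99 and 1 in the controls.

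CASP8, the initiator caspase of the death receptor route (chromosome 2, 201233443 to 201287711, plus strand), was the lowest of the 8 genes per kilobase of exon. It had only 76 and 103 counts in the knockouts and 74 and 77 in the controls, or 2.89 and 3.98 normalized CPM in the knockouts, against 3.31 and 3.98 in the controls. The groups overlapped, and the interval of the fold change was wide, from 0.589 to 1.51 (log2 fold change -0.082 ± 0.30, edgeR adjusted p = 0.866).

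HTRA2, a serine protease of the intermembrane space that leaves the mitochondria with DIABLO (chromosome 2, 74529377 to 74533348, plus strand), was below both controls in both knockouts. It was at 63.2 and 73.3 normalized CPM in the knockouts, against 78.9 and 79.5 in the controls, a log2 fold change of -0.22 ± 0.14 that did not pass (edgeR adjusted p = 0.287; 95% interval of the fold change 0.691 to 1.07). Without knockout replicate 3 its log2 fold change was -0.26, and once offset for GC content and length of the transcript it was -0.010. On the opposite strand, AUP1 covers 16.1% of the exonic bases of HTRA2 and LOXL3 20.8%, 36.9% in all, and whether reads were counted by strand is not known here. AUP1 fell (log2 fold change -0.51 ± 0.14, edgeR adjusted p = 0.0289, or 0.404 and 0.277 without control replicate 1 and 3), with 3697 and 3862 counts in the knockouts and 4747 and 3899 in the controls; its part in the HTRA2 value was not tested. The ratio of DIABLO to HTRA2 counts within a library was 0.593 and 0.491 in the knockouts and 0.25 and 0.278 in the controls.

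XIAP, which binds and inhibits CASP9 and effector caspases (chromosome X, 123859724 to 123913979, plus strand), had 44.0 and 35.6 normalized CPM in the knockouts, against 44.1 and 44.7 in the controls. Knockout replicate 1 was level with the controls and replicate 3 was below them. The log2 fold change of -0.16 ± 0.16 did not pass (edgeR adjusted p = 0.501, 95% interval of the fold change 0.699 to 1.15). Its value turned on 1 library: it was -0.31 without knockout replicate 1 and 0.056 without knockout replicate 3. BIRC8, a retrocopy of XIAP, had 0 counts in every library. BIRC2, which encodes the ubiquitin ligase cIAP1 (chromosome 11, 102347211 to 102378670, plus strand), was at 41.7 and 41.4 normalized CPM in the knockouts, against 38.6 and 36.7 in the controls. Its log2 fold change was 0.14 ± 0.14 (edgeR adjusted p = 0.501; 95% interval of the fold change 0.881 to 1.38). Both knockouts lay above both controls for BIRC2, as for APAF1, CYCS and DIABLO (31.8% of all genes tested), and below them for HTRA2 and XIAP (34.1% of all genes tested), so that the groups did not overlap for 6 of the 8 genes and for 65.9% of all genes tested.

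Set against XIAP within each library, the 3 genes that rose were higher in both knockouts than in both controls. There were 0.573 and 0.693 APAF1 counts for each XIAP count in the knockouts, against 0.289 and 0.294 in the controls. DIABLO gave 0.85 and 1.01 in the knockouts, against 0.448 and 0.494 in the controls, and CYCS 13.97 and 15.8 in the knockouts, against 7.81 and 8.25 in the controls. The ratio of BIRC2 to XIAP was 0.946 and 1.16 in the knockouts and 0.875 and 0.82 in the controls. The ratio of CASP9 to XIAP overlapped between the groups, at 0.262 and 0.411 in the knockouts and 0.292 and 0.294 in the controls. These ratios are a description and carry no test.

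**Figure D3:**
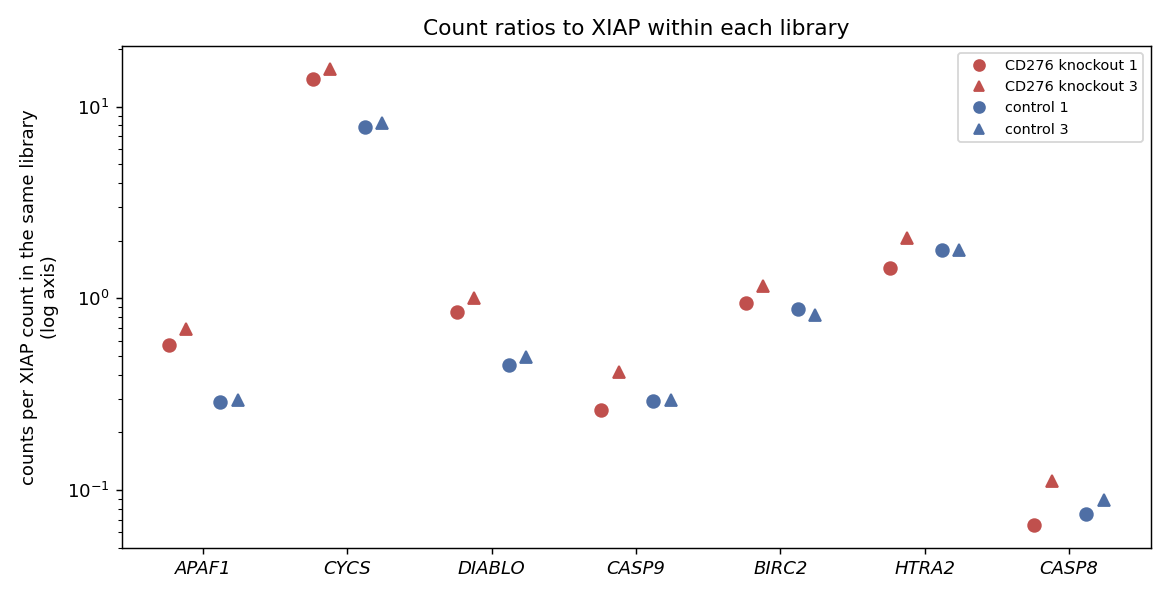
Counts of 7 genes divided by the XIAP count of the same library (vertical log axis), with knockout libraries in red on the left and control libraries in blue on the right of each gene. The APAF1, CYCS and DIABLO ratios are higher in both knockouts than in both controls, and those of CASP9, HTRA2 and CASP8 overlap.

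Levels of different genes were compared as normalized CPM per kilobase of exon in the GENCODE 29 basic transcripts. CYCS stood highest in both groups, at 132 ± 8.23 in the knockouts and 80.0 ± 3.85 in the controls (SD, n = 2 libraries each). HTRA2 followed with 28.8 ± 3.01 in the knockouts and 33.4 ± 0.179 in the controls. DIABLO was at 17.7 ± 0.492 in the knockouts and 10.1 ± 0.799 in the controls. BIRC2 was at 9.77 ± 0.0498 in the knockouts and 8.86 ± 0.324 in the controls, and XIAP at 4.46 ± 0.663 in the knockouts and 4.97 ± 0.0475 in the controls. The order below these changed between the groups. APAF1 was at 3.34 ± 0.0482 and CASP9 at 2.84 ± 0.478 in the knockouts, whereas in the controls APAF1 was at 1.74 ± 0.0381 and CASP9 at 2.83 ± 0.0411. CASP8 stood last, at 0.873 ± 0.195 in the knockouts and 0.926 ± 0.119 in the controls. No pair of neighbours in either order had overlapping libraries, but the lengths rest on an annotation that need not be the one used for counting.

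Of the 3 genes that rose, GC content in the longest transcript was 41.7% for APAF1, 41.6% for CYCS and 45.1% for DIABLO. Among genes that did not pass, it was 42.6% for CASP8, 39.0% for XIAP and 38.0% for BIRC2. CASP9 and HTRA2 were richer in GC, at 52.8% and 60.5%. Offset for GC content and length of the transcript, the log2 fold changes of APAF1, CYCS and DIABLO were 0.81, 0.63 and 0.78, and all 3 passed. Whether GC content has a part in these increases was not tested.

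The genes that act with these 8 were read from 6 lists of 58 genes, of which 50 were tested. In these lists 4 genes rose (8%) and 2 fell (4%), beside 9.87% and 12.9% of all genes tested, with a median log2 fold change of 0.12. The count that rose was 10 when scaled by library totals alone, where 2340 of all genes tested rose, beside 1780 as reported. At an unadjusted edgeR p under 0.05, 13 of the 50 were higher and 6 lower, beside 3230 and 3767 of all 18043 genes tested.

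Among the other caspases, CASP4, an inflammatory caspase, had 20 and 39 counts in the knockouts and 12 and 10 in the controls (1.10 ± 0.53, edgeR adjusted p = 0.166). CASP1, CASP5, CASP10 and CASP14 were too low to test, with at most 6 counts in a library.

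None of the 4 other inhibitor of apoptosis (IAP) family genes tested passed in the edgeR fit as reported (0 higher and 0 lower). At an unadjusted edgeR p under 0.05 there were 1 and 1, by DESeq2 1 and 0, and by limma voom 0 and 0. BIRC5, which encodes survivin, a mitotic protein of the family, was at 185 and 156 normalized CPM in the knockouts, against 128 and 122 in the controls (0.45 ± 0.14, edgeR adjusted p = 0.0538, or 0.038 by DESeq2). By library totals alone BIRC5 rose (edgeR adjusted p = 0.0360). BIRC3, which encodes cIAP2, had 33 and 39 counts in the knockouts and 15 and 17 in the controls (0.84 ± 0.44, edgeR adjusted p = 0.198). NAIP had 11 and 7 counts in the knockouts and 22 and 18 in the controls (-1.46 ± 0.53, edgeR adjusted p = 0.0782), and near-identical copies of part of it exist, so its counts are uncertain. XAF1, which encodes a binding partner of XIAP, had 0 counts in all 4 libraries.

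In the death receptor arm, which leads to CASP8, 2 of 13 genes tested rose and 2 fell. TNFRSF10D, a decoy receptor for the ligand TRAIL, rose to 27.6 and 26.2 normalized CPM in the knockouts, against 13.3 and 12.9 in the controls (1.04 ± 0.16, edgeR adjusted p = 0.00628). PEA15, which binds FADD and CASP8 and limits their assembly, rose to 136 and 108 in the knockouts, against 57.8 and 72.2 in the controls (0.91 ± 0.17, edgeR adjusted p = 0.0102). CASP8AP2, a CASP8-associated protein that also acts in histone transcript processing, fell to 40.0 and 27.6 in the knockouts, against 66.8 and 64.4 in the controls (-0.96 ± 0.19, edgeR adjusted p = 0.0114). TRAF2, an adaptor of tumour necrosis factor receptors that binds BIRC2, was named after its values were seen: it fell to 45.9 and 39.8 in the knockouts, against 71.0 and 69.3 in the controls (-0.71 ± 0.14, edgeR adjusted p = 0.0117, or 0.0713 with GC and length offsets). All 4 calls were lost without control replicate 1 and also without control replicate 3, at edgeR adjusted p from 0.0526 to 0.209.

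**Figure D4:**
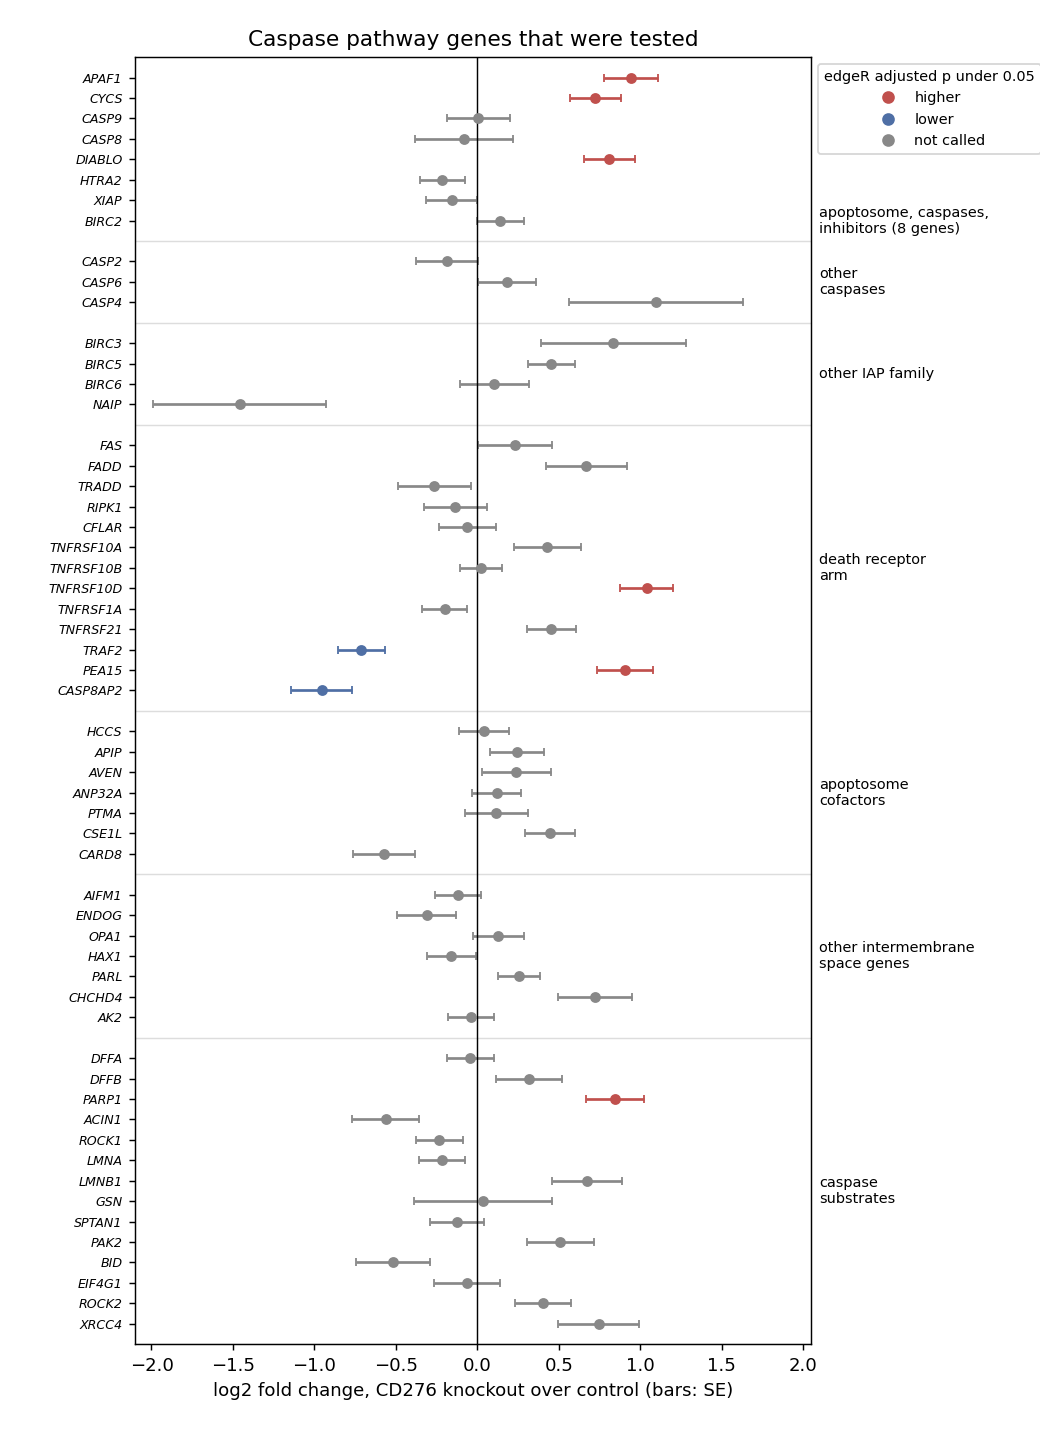
Log2 fold change of knockout over control (horizontal axis, bars are SE) for the 8 genes and the tested genes of 6 related lists that are reported here, coloured by the edgeR call. TNFRSF10D, PEA15 and PARP1 rose beside APAF1, CYCS and DIABLO, while TRAF2 and CASP8AP2 fell.

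None of the 7 genes that bind or assist the apoptosome passed in the edgeR fit as reported (0 in either direction). The same held for 7 other genes of the mitochondrial intermembrane space and inner membrane. At an unadjusted edgeR p under 0.05, 1 was higher and 1 lower in the first list, and 1 and 0 in the second. By DESeq2 the calls were 1 and 0 in each, and by limma voom 0. CHCHD4, which imports and oxidizes intermembrane space proteins, came closest, at 24.1 and 15.7 normalized CPM in the knockouts and 11.7 and 12.3 in the controls (0.72 ± 0.23, edgeR adjusted p = 0.0509, or 0.0298 by DESeq2). PARL, a rhomboid protease of the inner membrane, was at 70.5 and 68.8 in the knockouts and 58.3 and 58.4 in the controls (0.26 ± 0.13, edgeR adjusted p = 0.185), and shares 47.2% of its exonic sequence with AC131160.1 on the same strand. ENDOG, a mitochondrial nuclease, was at 72.6 and 82.3 in the knockouts and 79.8 and 112 in the controls (-0.31 ± 0.18, edgeR adjusted p = 0.238). It shares 39.2% of its exonic bases with SPOUT1 on the opposite strand. Of the first list, CARD8 was at 12.9 and 10.4 in the knockouts and 17.9 and 16.8 in the controls (-0.57 ± 0.19, edgeR adjusted p = 0.0592). CSE1L, a nuclear export factor, was at 293 and 240 in the knockouts and 196 and 195 in the controls (0.45 ± 0.15, edgeR adjusted p = 0.0646). APIP, which binds APAF1, was at 26.8 and 31.9 in the knockouts and 25.5 and 24.1 in the controls (0.24 ± 0.16, edgeR adjusted p = 0.309). CARD8 fell in some other edgeR fits, at an adjusted p of 0.0496 with upper quartile scaling and 0.0443 with a replicate block. By library totals alone CARD8 did not pass (edgeR adjusted p = 0.137), while CHCHD4 rose (edgeR adjusted p = 0.0433).

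Of 14 caspase substrates 1 rose and 0 fell in the edgeR fit as reported, 2 and 0 by DESeq2, and 1 and 0 by limma voom. At an unadjusted edgeR p under 0.05, 5 were higher and 2 lower. PARP1, a DNA damage sensor that effector caspases cleave, was at 1061 and 919 normalized CPM in the knockouts, against 519 and 584 in the controls (0.84 ± 0.18, edgeR adjusted p = 0.0137, or 0.313 and 0.173 without control replicate 1 and 3). LMNB1, a nuclear lamin, was at 257 and 163 in the knockouts, against 122 and 142 in the controls (0.67 ± 0.21, edgeR adjusted p = 0.0532, or 0.0133 by DESeq2). XRCC4, a DNA repair factor, was at 6.05 and 6.76 in the knockouts and 4.08 and 3.56 in the controls (0.74 ± 0.25, edgeR adjusted p = 0.0599). By library totals alone LMNB1 and XRCC4 also rose (edgeR adjusted p = 0.0421 and 0.0390).

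Likeness of pattern was measured as the root mean square distance between log2 normalized CPM values centred over the 4 libraries. In the related lists the nearest gene was TNFRSF10D for APAF1 (0.059), PARP1 for DIABLO (0.057), DFFA for CASP9 (0.040), TRADD for CASP8 (0.11), AIFM1 for HTRA2 (0.051) and ROCK1 for XIAP (0.045). Within the 8 genes, DIABLO and CYCS were each other's nearest (0.053). Of all genes tested with a mean of at least 5 normalized CPM, the nearest were HACD3 for APAF1 (0.016), ACTR2 for CYCS (0.0052), CCDC113 for DIABLO (0.016), HDDC2 for CASP9 (0.0071), NKX1-2 for CASP8 (0.013), DERL2 for HTRA2 (0.0080), ZNF530 for XIAP (0.0023) and NAPB for BIRC2 (0.010). With 4 libraries and so many genes, close matches are plentiful, so these distances only describe the values.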

How the data were processed

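The authors deposited raw counts per gene for 4 poly(A)-selected libraries (paired reads of 150 bases, per the labels' protocols) as 1 table; its columns are whole numbers with differing totals. Tools named in the submitters' processing notes, per the labels, are STAR 2.5.2b, Trimmomatic 0.36 and featureCounts from Subread 1.5.2, with GRCh38 as the build; neither the strand setting nor the treatment of multi-mapping reads nor the annotation release is given there. Of 57500 rows, 486 without a gene name (0.0191% to 0.029% of a library) were left out.

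Genes were filtered with filterByExpr, scaled by TMM and tested for a group effect alone by edgeR 4.0.16 under R 4.3.3 (glmQLFit with robust=TRUE, which left 2 residual degrees of freedom), with p-values adjusted over all 18043 genes tested and a threshold of 0.05. SE is the log2 fold change divided by the square root of F, and 95% intervals use the moderated degrees of freedom. At these depths 1 CPM stood for 20.1 to 25.8 counts. The fit was tested on simulated counts with the same spread for every gene. It recovered 6.56% of 1.5-fold, 63.5% of 2-fold and 95.4% of 4-fold changes, with 5 false calls among 17591 genes. The changes were planted in 61, 74 and 65 genes in that order, far fewer than the 4111 genes called in the data. The threshold after adjustment depends on that number, so these rates need not hold here. A gene that did not pass may still have changed. Alternatives used DESeq2 1.42.0, limma 3.58.1 (voom), other scalings and filters, a replicate block and leaving out each library. Gene positions, exon lengths and overlaps came from GENCODE 29, promoters from RefSeq (GRCh38.p14; all 8 genes matched).

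The 8 genes, the related lists and the rule for named genes (the 8 genes, CD276, the 3 genes of each list with the smallest p, copies and overlapping genes, and nearest patterns) were chosen with earlier results of these data known. Some genes of the related lists and markers are counted but not reported here by name.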

Additional observations from a re-analysis of the deposited data

How the results depend on the processing

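Of 893 comparisons of a single gene or a single list with its value as reported, 722 stayed the same. For a gene this means the same direction and call, and for a list a count within 1.5 times. Of the rest, 40 lost the call, 48 gained it and 27 changed sign, and 56 list counts moved further, some from or to 0. The threshold of 0.01 uses the fit as reported, so it could change calls but not direction. Leaving out 1 library gave 45 to 4795 genes higher and 267 to 4471 lower; for the 8 genes 0 to 3 higher and 0 to 1 lower, with 0 higher without either control replicate; and for the 6 related lists 0 to 19 higher and 0 to 10 lower. A lone library in a group is there taken to vary as the pair in the other does. At an adjusted p under 0.01, 361 genes rose and 675 fell, 1 of the 8 genes rose (APAF1), and 1 gene of the related lists rose and 0 fell. In the related lists 10 genes rose when scaled by library totals alone and 11 with no filter on low counts. There were 10 with GC and length offsets and 8 by DESeq2. Over all genes tested, 2340, 2512, 2521 and 1883 rose in that order, beside 1780 as reported.

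Deviations from the group means showed little correlation between libraries with the same replicate number (-0.015). The labels do not say whether such libraries were handled together. With the number as a replicate block, 8 genes of the related lists rose and 4 fell. Over all genes tested, 2062 rose and 2781 fell in that fit. The 8 genes kept their calls there, at log2 fold changes of 0.94 for APAF1, 0.72 for CYCS and 0.81 for DIABLO.

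The sign changes were in genes without a call; the cause was not tested. CASP9 (0.0070 as reported) was -0.019 with upper quartile scaling, -0.031 with at least 50 counts, -0.0028 with the replicate block, -0.033 in nuclear protein-coding genes alone, -0.076 with GC and length offsets, -0.0038 by limma voom, -0.11 without knockout replicate 3, 0.18 without knockout replicate 1 and -0.0099 without control replicate 1. By library totals alone CASP8 was 0.019, HDDC2 0.098, NKX1-2 0.037 and DFFA 0.061. Without knockout replicate 1 CASP8 was 0.14, HDDC2 0.16, NKX1-2 0.17, DFFA 0.096 and TRADD 0.012. Without knockout replicate 3 XIAP was 0.056, ZNF530 0.052, CASP8 -0.26, NKX1-2 -0.25 and TRADD -0.51, and without knockout replicate 1 XIAP was -0.31 and ZNF530 -0.32. Without control replicate 3 CASP8 was 0.054, HDDC2 0.0082 and NKX1-2 0.074. HDDC2 was 0.012 with RLE scaling, 0.022 with no filter and 0.012 by DESeq2. With GC and length offsets TRADD was 0.041 and ENDOG 0.20. Of the 8 genes, CASP8 had the fewest counts, 74 to 103 in a library.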
